A study of Caenorhabditis elegans with 28 samples.

Results

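A set of 7 stress-defence genes known as outputs of insulin signalling in *Caenorhabditis elegans* was followed hour by hour in larvae: the metallothionein genes *mtl-1* and *mtl-2*, the superoxide dismutase gene *sod-3*, the catalase genes *ctl-1* and *ctl-2*, the small heat shock gene *sip-1*, and *dod-3*, a gene named only for lying downstream of DAF-16. They were taken by gene name from the table of raw counts, which gave 7 of 20392 genes. Poly(A) RNA was sequenced from 28 libraries of whole worms, 14 from N2, the wild-type strain, and 14 from the strain HW3527, which carries the allele *ebax-1(tm2321)* on chromosome IV. Both strains were untreated, were plated as synchronized L1 larvae at 2000 worms per plate, were kept at 25 °C, and were sampled every hour from 18 h to 31 h each hour giving 1 library of either genotype. EBAX-1 recruits substrates to a Cullin-RING ubiquitin ligase, through which certain microRNAs are degraded, and the comparison asks how mRNA levels differ when it is lost. Following the study's design, which treats the mutant as delayed by 3 h, wild-type libraries of 18 to 28 h were set against mutant libraries of 21 to 31 h, which gave 11 matched hours. The study read that delay from cycling genes in this same mRNA time course, so agreement in timing at that shift is partly built in.

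The insulin-like pathway of worms runs from the receptor DAF-2 through a kinase cascade to the FOXO transcription factor DAF-16. Active signalling keeps DAF-16 out of the nucleus. When signalling is low, DAF-16 enters the nucleus and raises genes for metal binding, for the removal of superoxide and hydrogen peroxide, for protein folding and for microbial defence, so that levels of *sod-3* and *mtl-1* are in common use as readouts of the pathway. The same genes also respond to metals, heat, oxidants and food, and in larvae many genes additionally rise and fall once per molting cycle.

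Library totals were 5120921 to 9604238 counts in wild type and 5701773 to 9304062 in the mutant, so a level of 1 CPM (counts scaled to a library total of 1000000) stood for 5 to 10 reads. The level of the targeted gene checked the labels: *ebax-1* averaged 75.3 CPM in wild type and 29.6 CPM in the mutant at matched hours, and was lower in 11 of 11 (log2 difference -1.29, SE 0.091, edgeR adjusted p = 6.26e-07). Each genotype was a single culture series. Errors and p-values below reflect how far hourly libraries scatter around a fitted curve, and genotype and culture cannot be told apart. In whole worms, fewer cells of a type and less RNA per cell cannot be told apart either.

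Of the 7 genes, 3 were higher in the mutant at matched hours and none was lower (edgeR quasi-likelihood test of the mean log2 difference, adjusted p under 0.01). The 3 were *mtl-1*, *sip-1* and *dod-3*, each higher in 11 of 11 matched hours. Over all 14022 genes tested, 18.9% were called, 9.73% as higher and 9.16% as lower, and 6.87% lay above wild type in 11 of 11 hours. The median log2 difference was 0.33 over the 7 genes and 0.04 over all genes tested. *mtl-2*, *sod-3*, *ctl-1* and *ctl-2* did not pass this test. One of them, *ctl-2*, passed the test of any difference over the time course, as did *mtl-1*, *sip-1* and *dod-3* (4 of 7, beside 5.8% of all genes tested).

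**Figure D1:**
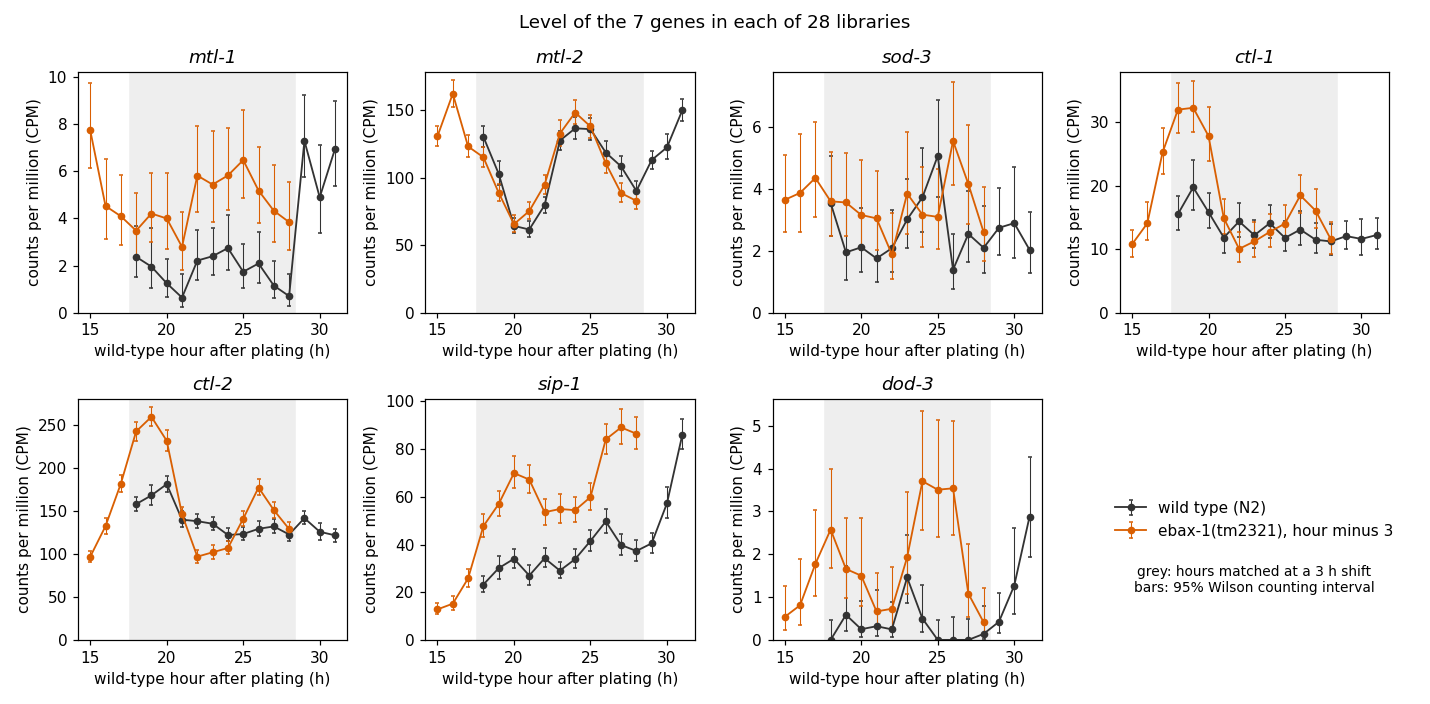
Level of each of the 7 genes in CPM (vertical axes, linear) against the wild-type hour after plating (horizontal axes, mutant hours shifted by 3 h), with 1 point per library, bars for the 95% Wilson counting interval and grey for the 11 matched hours. The *mtl-1*, *sip-1* and *dod-3* points of the mutant lie above wild type at each matched hour, the *mtl-2* curves run together, and both catalase curves rise and fall in the mutant while they stay flatter in wild type.

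Metallothioneins are small cysteine-rich proteins that bind zinc, copper and cadmium. *mtl-1* (WBGene00003473) is a protein-coding gene on the minus strand of WBcel235 chromosome V, 6691371 to 6691863. In the 11 matched wild-type libraries it lay between 0.639 CPM at 21 h and 2.74 CPM at 24 h, with a median of 1.95 CPM. In the 11 mutant libraries it lay between 2.79 CPM at 24 h and 6.47 CPM at 28 h, with a median of 4.32 CPM. Every matched mutant library was above every matched wild-type library. Such a complete separation upwards was found for 1 of the 7 genes and for 0.435% of all genes tested. The means were 1.75 ± 0.71 CPM in wild type and 4.67 ± 1.15 CPM in the mutant (SD, n = 11), a ratio of 2.67, and the log2 difference of the fit was 1.43 (SE 0.15, edgeR adjusted p = 2.07e-05). The smallest hourly gap on the log2(CPM + 1) scale was 0.41 at wild-type hour 18 and the largest was 1.51 at hour 28. These levels rest on 150 counts in wild type and 365 in the mutant over the 11 libraries.

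The separation of *mtl-1* held for the matched hours and not for the whole series. In the wild-type libraries of 29 to 31 h, which have no mutant partner, *mtl-1* stood at 4.89 to 7.29 CPM, within the range of the mutant. In the unmatched mutant libraries of 18 to 20 h it stood at 4.09 to 7.74 CPM. Compared at the same hour on the clock, the mutant was higher in 11 of 14 hours, and the log2 difference was 0.94 (edgeR adjusted p = 0.000603), more than 1.5 times smaller than at the 3 h shift.

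*mtl-2* (WBGene00003474; WBcel235 chromosome V, 14018270 to 14018673, minus strand), the gene for the other metallothionein, which in worms is strongly induced in the intestine by cadmium, was far more abundant. It ranged from 61.6 CPM at 21 h to 137 CPM at 24 h in matched wild-type libraries (median 108 CPM) and from 65.6 CPM at 23 h to 148 CPM at 27 h in the mutant (median 94.8 CPM). The ranges overlapped almost in full, and the mutant was higher at 6 of 11 hours. The means were 105 ± 27.8 and 103.7 ± 27.2 CPM (SD, n = 11), and the log2 difference was -0.06 (SE 0.03, edgeR adjusted p = 0.176). Per 100 counts of *mtl-2* there were 1.66 ± 0.57 counts of *mtl-1* in matched wild-type libraries and 4.599 ± 0.93 in mutant libraries (SD, n = 11). That ratio ran from 0.776 to 2.77 for wild-type and from 3.02 to 6.13 for mutant libraries at matched hours. With *mtl-2* not called, this restates the separation of *mtl-1*, and no share over other gene ratios was taken. Over all 14 hours the ratios overlapped, reaching 6.45 in wild type at 29 h and 2.79 in the mutant at 19 h.

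*mtl-2* went up and down over the sampled hours in both genotypes. A cosine and sine of period 7 h with a linear term were fitted to the 14 libraries of each genotype, and oscillation was called where the adjusted p lay under 0.01 and the amplitude, the height of the peak over the mid-line, reached 0.5 log2. In wild type *mtl-2* had an amplitude of 0.49 (edgeR adjusted p = 7.91e-05), just under the amplitude limit, and in the mutant 0.52 (edgeR adjusted p = 0.000297), just over it. The fitted peaks fell 3.37 h after a multiple of 7 h since plating in wild type and 5.69 h after it in the mutant. At the 3 h shift the troughs lay close together, at wild-type hour 21 and mutant hour 23, and the difference in rhythm was not called (edgeR adjusted p = 0.421). That shift was itself drawn from cycling genes of this time course, so close timing is no independent result. The call for *mtl-2* changed side in either genotype under small changes: leaving out the library of 27, 28, 29, 30 or 31 h brought the wild-type amplitude to between 0.50 and 0.53, and leaving out that of 19 or 23 h brought the mutant amplitude to 0.496 or 0.467.

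*mtl-1* was not called rhythmic in wild type (amplitude 0.85, edgeR adjusted p = 0.0718) or in the mutant (amplitude 0.29, edgeR adjusted p = 0.348). Without the wild-type library of 29 h, its highest, the wild-type amplitude was 0.98 (edgeR adjusted p = 0.00611).

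*sod-3* (WBGene00004932; WBcel235 chromosome X, 17092753 to 17094306, plus strand) encodes a mitochondrial manganese superoxide dismutase, which turns superoxide into hydrogen peroxide. It was low in both genotypes. Matched wild-type libraries held 1.39 CPM at 26 h to 5.08 CPM at 25 h (median 2.12 CPM), and mutant libraries 1.89 CPM at 25 h to 5.56 CPM at 29 h (median 3.18 CPM). The ranges overlapped, and the lowest and the highest wild-type values came from consecutive hours. *sod-3* was higher in the mutant at 8 of 11 hours, with means of 2.67 ± 1.09 and 3.43 ± 0.94 CPM (SD, n = 11), and the log2 difference of 0.33 (SE 0.19) was not called (edgeR adjusted p = 0.215). These levels rest on 10 to 44 counts per library, and the part of depth in the result was not tested. *sod-3* was neither rhythmic nor gradual by the test in wild type or the mutant.

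**Figure D2:**
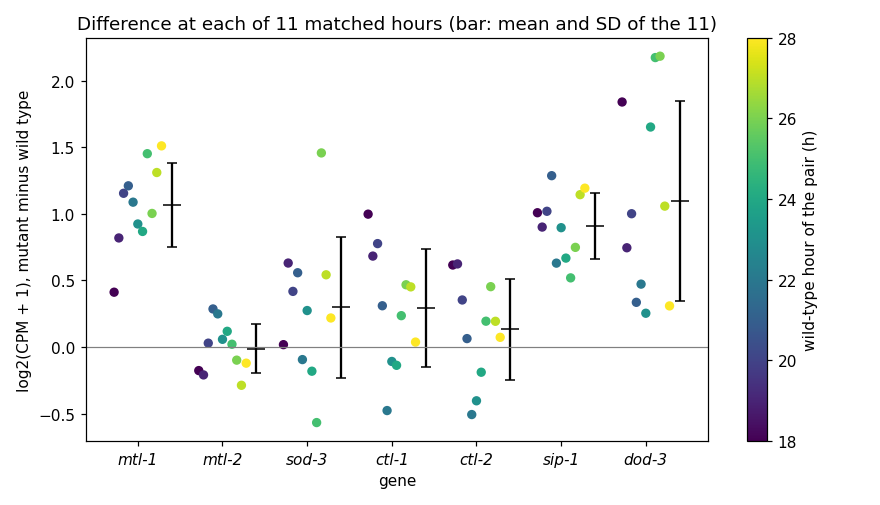
Difference of log2(CPM + 1), mutant minus wild type (vertical axis), at each of the 11 matched hours for each of the 7 genes (horizontal axis), coloured by the wild-type hour, with a bar for the mean and SD of the 11. All points of *mtl-1*, *sip-1* and *dod-3* are above 0, those of *ctl-1* and *ctl-2* run from 0.997 at hour 18 and 0.62 at hour 19 down to -0.48 and -0.51 at hour 22, and those of *mtl-2* scatter around 0.

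Catalases break down hydrogen peroxide. In worms *ctl-1* encodes a cytosolic catalase and *ctl-2* the peroxisomal one, and both lie in a tandem array with a further copy, *ctl-3*. On the minus strand of WBcel235 chromosome II, *ctl-2* (WBGene00000831) spans 14299556 to 14302027, *ctl-1* (WBGene00000830) spans 14303568 to 14306260, and *ctl-3* (WBGene00013220) spans 14307798 to 14310779, with 1540 and 1537 bases between neighbours. The sources used here do not say how reads that fit more than 1 copy were counted, so the split between the copies is uncertain where they share sequence.

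*ctl-2* was steady in matched wild-type libraries, from 122 CPM at 24 h to 181 CPM at 20 h (median 135 CPM). In the mutant it ranged from 96.9 CPM at 25 h to 260 CPM at 22 h (median 146 CPM). The mutant reached both higher and lower levels than wild type ever did. It stood at 242, 260 and 232 CPM at 21, 22 and 23 h, fell to 96.9, 102 and 107 CPM at 25, 26 and 27 h, and came back to 177 CPM at 29 h. The means were 141 ± 19.8 and 162 ± 58.2 CPM (SD, n = 11). Their log2 difference of 0.09 (SE 0.04) was not called (edgeR adjusted p = 0.131), whereas the test of any difference was (edgeR adjusted p = 0.00401).

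*ctl-1* followed the same course at a lower level. In matched wild-type libraries it lay between 11.2 CPM at 28 h and 19.7 CPM at 19 h (median 13.1 CPM), and in the mutant between 10.0 CPM at 25 h and 32.3 CPM at 22 h (median 14.9 CPM). The mutant was above the wild-type range at 21, 22 and 23 h and within or just below it later. *ctl-1* was higher in the mutant at 8 of 11 hours, with means of 13.7 ± 2.56 and 18.3 ± 8.38 CPM (SD, n = 11), and its log2 difference of 0.26 (SE 0.07) missed the threshold (edgeR adjusted p = 0.0137). That value rested on the early hours: without the first 3 matched hours it was 0.05 (edgeR adjusted p = 0.741). Counts of *ctl-1* per 100 counts of *ctl-2* were 9.75 ± 1.12 in wild type and 11 ± 1.24 among the mutant libraries (SD, n = 11).

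The rhythm of the catalase genes was called in the mutant and not in wild type. Of the 7 genes, 4 were called oscillating in the mutant (*ctl-1*, *ctl-2*, *mtl-2* and *dod-3*), beside 18.3% of all genes tested there, and 0 of 7 in wild type, beside 19.5%. In wild type 1 of the 7, *mtl-2*, had an adjusted p under 0.01, and *mtl-1*, *mtl-2*, *sod-3* and *dod-3* had an unadjusted p under 0.05 (edgeR). DESeq2 and limma called 0 of 7 as well. The amplitude of *ctl-2* was 0.01 in wild type (edgeR adjusted p = 0.985) and 0.59 in the mutant (edgeR adjusted p = 4.66e-05). For *ctl-1* it was 0.11 in wild type (edgeR adjusted p = 0.442) and 0.71 in the mutant (edgeR adjusted p = 9.87e-05). The neighbouring *ctl-3*, which in worms is expressed in pharyngeal muscle and neurons, had 0.43 in wild type (edgeR adjusted p = 0.0455) and 0.69 in the mutant (edgeR adjusted p = 0.00619). The fitted peaks of *ctl-1*, *ctl-2* and *ctl-3* in the mutant were close together, 0.889, 1.05 and 0.862 h after a multiple of 7 h since plating.

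A rhythm called in only the mutant is not by itself a difference between the genotypes, so the cosine and sine terms were compared directly over the 22 matched libraries, in amplitude and phase together. For *ctl-2* the amplitudes were 0.07 and 0.54 and the adjusted p was 0.0126 (edgeR, unadjusted p = 5.34e-06), just past the threshold of 0.01. For *ctl-1* they were 0.08 and 0.60 (edgeR adjusted p = 0.0598), and for *ctl-3* 0.53 and 0.69 (edgeR adjusted p = 0.0597). None of the 7 genes was called (0 of 7), and 0.0293% of all genes tested were. DESeq2 called 1 of the 7 and limma 0. The unadjusted p was under 0.05 for *ctl-1*, *ctl-2*, *sip-1* and *dod-3*. The *ctl-2* value passed the threshold with DESeq2 (adjusted p = 2.28e-06), at a shift of 2 h (edgeR adjusted p = 2.58e-05) or 4 h (edgeR adjusted p = 9.23e-05), and without the pair of 28 h and 31 h (edgeR adjusted p = 0.00423). Phase enters this test, so a shift other than 3 h can by itself add a difference for a cycling gene. The values at 2 h and 4 h therefore do not isolate a change of amplitude. The interaction of genotype with the spline curve likewise called none of the 7, and 0% of all genes, at the 3 h shift. Its lowest value among the 7 was again that of *ctl-2* (unadjusted p = 0.000128, edgeR adjusted p = 0.0995). At that test 1329 genes had an unadjusted p under 0.05, DESeq2 called 1 of the 7 and limma 0. For both tests the share over all genes was taken only with edgeR at the 3 h shift.

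**Figure D3:**
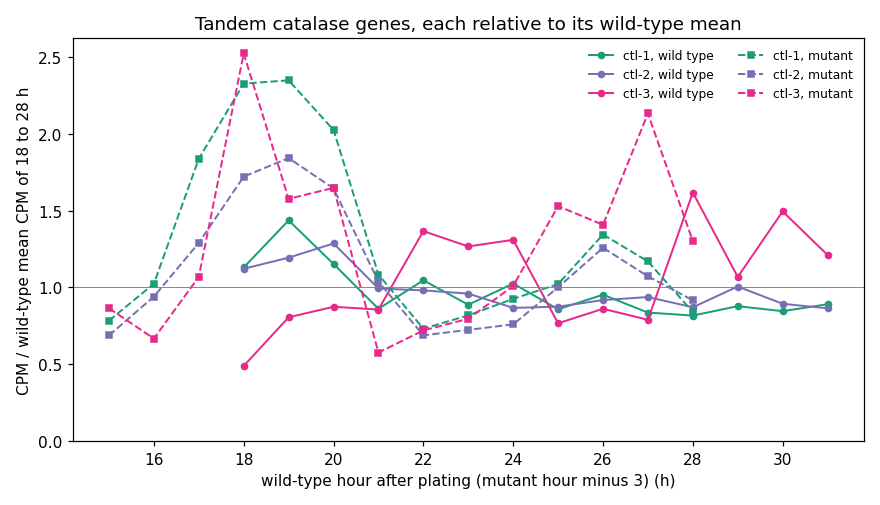
CPM of *ctl-1*, *ctl-2* and *ctl-3* divided by each gene's own mean over the 11 matched wild-type libraries (vertical axis) against the wild-type hour (horizontal axis, mutant hours shifted by 3 h), wild type as solid lines with circles and mutant as dashed lines with squares. Mutant *ctl-1* and *ctl-2* are highest at wild-type hours 18 to 20 and lowest of the matched hours at 22, and the wild-type lines of both stay closer to 1.

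*sip-1* (WBGene00004798; WBcel235 chromosome III, 10506106 to 10506801, minus strand) encodes a small heat shock protein of the family of alpha-crystallins, a chaperone that in worms is found in the reproductive tissue and embryos. Matched wild-type libraries ranged from 23.2 CPM at 18 h to 49.7 CPM at 26 h (median 34.0 CPM), and mutant libraries from 47.7 CPM at 21 h to 89.1 CPM at 30 h (median 59.9 CPM). Only the lowest mutant value fell within the wild-type range. The means were 34.5 ± 7.41 and 65.8 ± 14.7 CPM (SD, n = 11), a ratio of 1.91. The log2 difference of 0.88 had the smallest error of the 3 genes called (SE 0.05, edgeR adjusted p = 2.03e-07). The gap was between 0.52 at wild-type hour 25 and 1.29 at hour 21 on the log2(CPM + 1) scale.

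*sip-1* also climbed through the time course in both genotypes. The fitted linear change from 18 h to 31 h was 1.402 log2 for wild type (SE 0.22, edgeR adjusted p = 0.000168) and 1.67 log2 for the mutant (SE 0.34, edgeR adjusted p = 0.00144). Gradual change was called where the adjusted p lay under 0.01 and the change reached 1 log2. In wild type 1 of the 7 genes rose and none fell, beside 14.9% and 6.14% of all genes tested. In the mutant 1 rose and 1 fell, beside 8.31% and 4.48%. The gene that fell was *ctl-1* (-1.15 log2, SE 0.23, edgeR adjusted p = 0.00121). The *sip-1* rise reached past the matched hours. Wild-type libraries of 29 to 31 h held 40.5 to 85.9 CPM, up to the level of the oldest mutant libraries, and mutant libraries of 18 to 20 h held 12.8 to 25.8 CPM, below or at the level of the youngest wild-type ones. The slope fitted to the matched hours alone, carried over the same 13 h, gave 0.98 log2 for wild type and 0.74 log2 for the mutant. Both were under the limit of 1.

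For a gene that climbs, the size of the genotype difference depends on the shift. At a shift of 2 h the log2 difference of *sip-1* was 0.72, at 4 h it was 0.94, and at the same hour it was 0.29 (edgeR adjusted p = 0.000178), with the mutant higher in 11 of 14 hours. Markers of the germ line climbed alongside. Among oocyte markers 9 of 10 rose over the wild-type series and 8 of 8 over the mutant series. The germ line list had 7 of 9 rising over the wild-type series and 6 of 9 over the mutant series. A rise was called for 14.9% of all genes tested over the wild-type series and for 8.31% over the mutant series. The summed level of the oocyte markers was 61.0 to 142 CPM in matched wild-type libraries and 64.8 to 169 CPM in mutant ones. Between genotypes edgeR called 0 of 8 oocyte markers (0 at an unadjusted p under 0.05) and 1 of 9 germ line markers (*glp-1*, the germ line Notch receptor, 0.20 log2). Over all genes tested 18.9% were called. The part of germ cell content in the *sip-1* difference was not tested.

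*dod-3* (WBGene00016052; WBcel235 chromosome V, 2730622 to 2731098, minus strand) was the scarcest of the 7. Matched wild-type libraries held 0 CPM in 4 of 11 (18, 25, 26 and 27 h) and up to 1.46 CPM at 23 h, with a median of 0.246 CPM. In these 4 libraries 3 counts, taken as the limit that a count of 0 allows, equal 0.355 to 0.417 CPM, while the 95% Wilson intervals plotted by hour reach 0.455 to 0.534 CPM, and both cover counting error only. Mutant libraries held 0.412 CPM at 31 h to 3.71 CPM at 27 h (median 1.66 CPM). In all, 28 counts in wild type stood against 155 in the mutant. The means were 0.318 ± 0.430 and 1.94 ± 1.22 CPM (SD, n = 11), a ratio of 6.09, and the ranges overlapped. The fitted log2 difference was 3.59 (SE 0.39, edgeR adjusted p = 0.000107). It exceeds the log2 ratio of the means, 2.61, and on the log2 scale with 8 added to the scaled counts it was 1.04 (limma adjusted p = 5.91e-05), so the size depends on the scale.

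*dod-3* was the only called gene of the 3 that was also called oscillating in the mutant (amplitude 1.25, edgeR adjusted p = 0.000109). Its mutant levels were highest at 27, 28 and 29 h, with 3.71, 3.51 and 3.54 CPM, and had an earlier high of 2.58 CPM at 21 h. The larger wild-type amplitude of 1.88 was not called (edgeR adjusted p = 0.0499) and rested on few counts. Wild-type *dod-3* rose to 2.88 CPM in the last library, at 31 h, which has no mutant partner. Because *dod-3* passed the filter on low counts only when the filter was set by the fitted design, and not when it was set by genotype, it was tested in 1 of 2 forms of that filter.

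**Figure D4:**
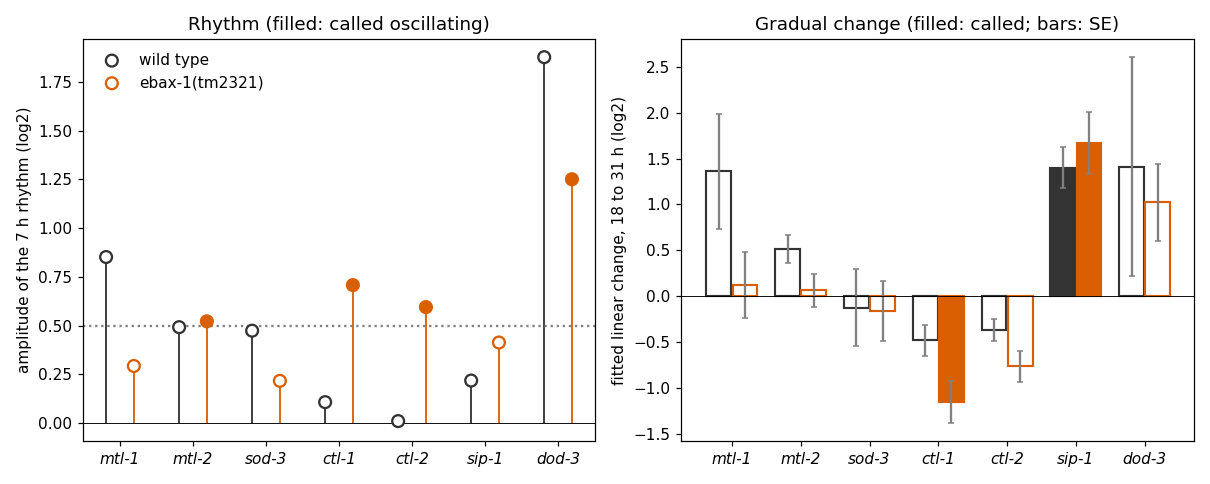
Amplitude of the 7 h rhythm in log2 (left, dotted line at the limit of 0.5) and fitted linear change from 18 h to 31 h in log2 with its SE (right) for the 7 genes in the 14 wild-type and the 14 mutant libraries, filled where called. In the mutant *ctl-1*, *ctl-2*, *mtl-2* and *dod-3* are filled as oscillating and in wild type none, and *sip-1* is the 1 gene that rises in both genotypes.

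Levels were compared between genes per kilobase of exon. At matched hours the order in wild type was *mtl-2* with 303 CPM per kilobase, *ctl-2* with 87.4, *sip-1* with 53.9, *ctl-1* with 8.84, *mtl-1* with 4.68, *sod-3* with 3.03 and *dod-3* with 0.757. The gap between the neighbours *mtl-1* and *sod-3* was smaller than the SD of *mtl-1* over the 11 hours (1.91), so these were not separated beyond their spread. In the mutant *mtl-2* led with 299, followed by *sip-1* with 103, *ctl-2* with 101, *mtl-1* with 12.5, *ctl-1* with 11.8, *dod-3* with 4.61 and *sod-3* with 3.90. There *sip-1* and *ctl-2*, *mtl-1* and *ctl-1*, and *dod-3* and *sod-3* were not separated beyond their spread. That spread also holds the course of development, and genes were not compared within each library, so the order at single hours was not tested.

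Of 22 genes tested of the insulin pathway itself, 0 were higher and 1 was lower, beside 9.73% and 9.16% of all genes tested. The 1 was *par-5*, which encodes a 14-3-3 protein that binds DAF-16 (-0.12 log2, SE 0.02). Their median was 0.05, beside 0.04 for all genes, and 11 of the 22 had an unadjusted p under 0.05 in either direction. *daf-16* was higher in 11 of 11 matched hours by 0.10 log2 (SE 0.03), which missed the threshold (edgeR adjusted p = 0.0183), and *daf-2* differed by 0.14 log2 (SE 0.06, edgeR adjusted p = 0.10). mRNA levels do not report the location or activity of DAF-16 protein.

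Of 27 other outputs of insulin signalling and DAF-16 that were tested, 13 were higher, 2 were lower and 12 were not called, with a median of 0.21. The shares over all genes tested were 9.73% higher and 9.16% lower, and the difference between this list and others was not tested. The list was not split by the direction in which the pathway acts on each gene, so higher and lower do not name a pathway direction. The 4 with the smallest adjusted p were the lysozyme genes *lys-7* (2.03 log2, SE 0.06) and *lys-8* (0.51 log2, SE 0.02), the fatty acid desaturase gene *fat-5* (1.18 log2, SE 0.07) and *dod-17*, which was lower (-0.72 log2, SE 0.05). *lys-7* averaged 22.0 CPM in wild type and 93.4 CPM in the mutant. This list and the 7 genes were chosen with earlier results of these data known, so their direction is no independent evidence.

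In the remaining defence families the counts are set beside 18.9% of all genes called, 9.73% as higher and 9.16% as lower. Of 24 other superoxide dismutase, catalase, peroxiredoxin, thioredoxin and glutathione genes, 2 were higher and 5 lower (median -0.07). Those with the smallest adjusted p were all lower: *sod-1*, for the cytosolic copper-zinc superoxide dismutase (-0.23 log2, SE 0.03), *gss-1*, for glutathione synthetase (-0.28 log2, SE 0.03), the glutathione S-transferase gene *gst-4* (-0.73 log2, SE 0.10), and *sod-2*, for the other mitochondrial manganese superoxide dismutase (-0.15 log2, SE 0.03). *ctl-3* differed by 0.38 log2 (edgeR adjusted p = 0.0542). Of 14 metal-handling genes 1 was higher, the ferritin gene *ftn-1* (0.95 log2, SE 0.17), which also stands in the list of insulin outputs, and 1 was lower, *hmt-1*, for a transporter needed for cadmium tolerance (-0.38 log2, SE 0.03). The other 12 were not called, and 2 of 14 is near the share over all genes. Of 10 tested genes of the small heat shock family, to which *sip-1* belongs, 0 were higher and 2 were lower, the heat-inducible *hsp-16.41* (-1.11 log2, SE 0.17) and *hsp-16.2* (-0.80 log2, SE 0.12). This too is near the share over all genes. *sip-1* itself was higher. Near-identical *hsp-16* copies may share reads.

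**Figure D5:**
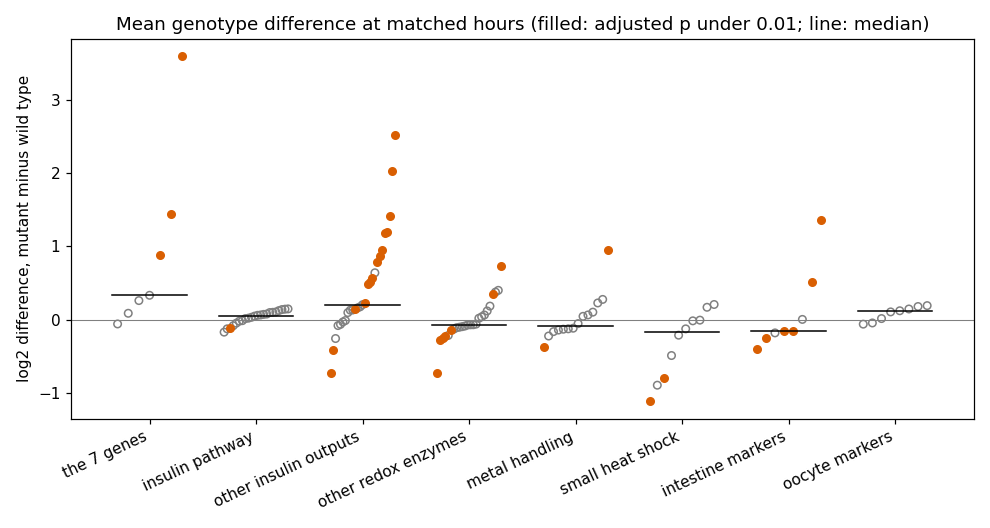
Mean log2 difference between genotypes at matched hours, mutant minus wild type (vertical axis), for each tested gene of the 7, of 5 related lists and of the intestine and oocyte markers (horizontal axis), filled at an adjusted p under 0.01, with a line for each list's median. The other insulin outputs have 13 filled points above 0 and 2 below, and the insulin pathway itself has 1 filled point, below 0.

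The tissue makeup of the libraries was read from marker lists, in which 0 of the measured genes were without counts throughout. The counts below stand beside 9.73% of all genes tested called as higher and 9.16% as lower. Of 8 intestine markers, 2 were higher and 4 lower, and their summed level was 5991 to 8473 CPM in wild type and 5669 to 7621 CPM in the mutant. Those with the smallest adjusted p were *pgp-1* (1.36 log2), *ifb-2* (-0.39 log2), *ges-1* (0.52 log2) and *act-5* (-0.25 log2). Of 6 epidermis markers 4 were higher, all collagen genes whose levels follow the molting cycle (*dpy-7* 0.62, *sqt-3* 0.71, *dpy-13* 0.74 and *rol-6* 0.73 log2). Their mean levels in wild type and mutant were closer: 201 and 240 CPM for *dpy-7* and 1128 and 1396 CPM for *sqt-3*. For *dpy-13* they were 1381 and 1729 CPM, and for *rol-6* 420 and 506 CPM. The size of these differences thus depends on the scale. Of 5 body wall muscle markers 4 were lower (*unc-15* -0.22, *dim-1* -0.26, *pat-10* -0.30 and *unc-54* -0.41 log2). In the pharynx list *myo-2* was lower (-0.14 log2) and the other 4 of 5 were not called. In the neuron list *snb-1* was higher (0.18 log2) and *egl-3* lower (-0.15 log2). Of 9 sperm markers edgeR called 0 (0 at an unadjusted p under 0.05). The SE was 106.5 log2 for *msp-38* and 4176 log2 for *msp-57*, and *spe-11*, *ssp-16* and *gsp-3* had no usable SE. The test could not call these genes, so the count does not show that sperm content was alike. The part of tissue makeup in the differences of *mtl-1*, *sip-1* and *dod-3* was not tested.

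The 7 genes did not share 1 pattern over time. Across the 28 libraries, on the log2(CPM + 1) scale, Pearson's r was 0.93 between *ctl-1* and *ctl-2* (0.76 within the 14 wild-type and 0.97 within the 14 mutant libraries). It was 0.64 between *mtl-1* and *dod-3* (0.625 within wild type and 0.204 within the mutant). Between *mtl-1* and *mtl-2* it was 0.46 (0.611 within wild type and 0.577 within the mutant). The other pairs lay between -0.39 and 0.42 across the 28 libraries. Within a genotype they ran from -0.601 (*mtl-1* and *ctl-2*, mutant) to 0.576 (*mtl-1* and *sip-1*, wild type). Values across both genotypes also hold the genotype differences of the genes. These are descriptions, since the points share libraries, cultures and the course of development.

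By the same measure, among genes of at least 5 CPM on average, the 3 genes most like each were as follows. Libraries of both genotypes entered this choice, so a genotype difference shared with a member could be part of why a gene was picked. The calls between genotypes are therefore descriptions, beside 9.73% of all genes tested called as higher. *mtl-1* was most like *efhd-1* (r = 0.84), *rab-1* (0.83) and *lys-7* (0.81), and of these *efhd-1* (0.66 log2) and *lys-7* were higher in the mutant. *mtl-2* was most like *grd-5* (r = 0.90), *cut-4* (0.89) and *msra-1* (0.88), none of which was called between genotypes. *sod-3* had the loosest likeness, to *ugt-17* (r = 0.75), *lgc-43* (0.71) and F21C10.10 (0.69), of which *ugt-17* (0.25 log2) and F21C10.10 (1.03 log2) were higher in the mutant. *sip-1* was most like *pie-1* (r = 0.91), a gene of the germ line, and like F34D10.4 (0.87) and EEED8.14 (0.86), and the last 2 were higher in the mutant (0.24 and 0.56 log2). *dod-3* was most like Y54G2A.52 (r = 0.84), T02C5.1 (0.80) and F21A3.2 (0.79), and all 3 were higher in the mutant. *ctl-1* was most like *acox-3*, an acyl-CoA oxidase gene (r = 0.95), then *ctl-2* and *maoc-1* (0.91), and *ctl-2* was most like *ctl-1*, *maoc-1* (0.92) and *dhs-18* (0.91). Of these *acox-3* was higher in the mutant (0.32 log2) and the others were not called.

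The calls of the mean difference were steady and those of any difference were not. *mtl-1* and *sip-1* were called under each of the 22 alternatives tried and *dod-3* under each of the 21 in which it was tested. The test of any difference called 4 of the 7 with all 11 pairs, 2 without the pair of wild-type 21 h or of 23 h, and 1 without that of 24 h or of 25 h, which left *sip-1*. Without the first 3 matched hours together it also called 1.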

How the data were processed

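mRNA was sequenced from 14 N2 and 14 *ebax-1(tm2321)* libraries, 1 per genotype and hour. Both were read from the labels. The authors mapped the reads through QuasR to ce10, and the submitters' processing notes name HISAT2 as the aligner, without a version. They counted first reads over WS220 exons on the strand that the stranded kit marks. The deposited counts are raw reads per gene without normalization. The authors also deposited log2 values of counts scaled to the mean library total with 8 added, and recomputing these differed by at most 0.0005. The log2 values entered no count test. Coordinates and exon lengths are those of WBcel235, not of ce10. No pair of libraries was identical (0 pairs).

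CPM are counts scaled to a library total of 1000000. Tests used edgeR 4.0.16 in R 4.3.3 (quasi-likelihood F tests, TMM scaling, filterByExpr with the fitted design, Benjamini-Hochberg adjustment over all genes tested, calls at 0.01). The model of the matched hours held 6 cubic B-spline terms of the hour, the genotype, and the products of both (14 parameters, which left 8 degrees of freedom), and the genotype contrast was averaged over the 11 hours or tested with 7 degrees of freedom. Rhythm and linear change were fitted per genotype with a period of 7 h. Each edgeR SE was calculated back from the test, as the absolute log2 value over the square root of its F statistic. It becomes very large where F is very small, and is missing where F vanishes. The scripts were tested on simulated data. DESeq2 1.42.0, limma 3.58.1, other filters, scalings, spline sizes, shifts, periods and windows, and leaving out each hour, were tried as alternatives.

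The members, gene lists and tests were chosen with earlier results of these data known. By rule the text names the 7 genes, *ebax-1*, *ctl-3*, *daf-16* and *daf-2*, the 4 called genes of smallest adjusted p in each list, and the 3 genes most like each of the 7. The filter on low counts was first set by genotype (12094 genes tested, *dod-3* not among them) and then, after that result was seen, by the design (14022 genes). The direct test of a rhythm difference was also added after the data were seen.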

Additional observations from a re-analysis of the deposited data

How the results depend on the processing

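The mean genotype differences of *mtl-1*, *sip-1* and *dod-3* kept their direction and their call under all alternatives in which they were tested. Their log2 ranges were 0.94 to 1.60, 0.29 to 0.94 and 1.04 to 4.33. The count of called genes among the 7 ran from 2 (filter by genotype, chosen after seeing the data, which leaves out *dod-3*) to 4. *ctl-1* made the difference at 4, being called with total-count scaling, limma, a 2 h shift, the same hour, and without the pair of 22 h and 25 h. Of the calls over all genes, 1364 of 2648 were higher with TMM and 1893 of 2763 with total counts alone, which moved the median of all genes from 0.04 to 0.08. With limma on log2 values, which changes the test, the pseudocount and the scaling together, 1547 of 2172 were higher. The same-hour comparison called 4047 genes, against 2648 at the 3 h shift, and leaving out the first 3 matched hours called 1247.

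The test of any difference called 1 gene of the 7 without the first 3 matched hours, and from 1 to 4 when each pair was left out. The interaction called 1 with DESeq2, with a 2 h shift and without the last 3 matched hours, 2 with a 4 h shift and 6 at the same hour. At the same hour or a changed shift the genotypes can be out of phase, which the interaction counts as a difference. The share over all genes was not taken under the settings of this paragraph, so its counts have no background beside them. In wild type 1 gene oscillated with a period of 7.5 h or in the matched hours only, and from 0 to 2 when each hour was left out. Gradual changes in the matched hours only (slope carried over 13 h) were called for 0 wild-type and 1 mutant genes. With a period of 6.5 h they were called for 1 in the mutant. The added test of a rhythm difference called 1 with DESeq2, 3 at a 2 h shift and 2 at a 4 h shift, and 0 to 1 when each pair was left out. It counts a difference in phase too, which a changed shift can add.

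Signs turned only for values that were not called. These were the mean differences of *ctl-2* without the first 3 hours (-0.066) and of *mtl-2* without the last 3 (0.0041). Slopes fitted to the matched hours alone, carried over 13 h, turned for *mtl-1* (-0.35) and *sod-3* (0.39) in wild type. In the mutant that of *sod-3* turned (0.38). With a period of 6.5 h the linear changes of *mtl-1* (-0.040) and *mtl-2* (-0.10) in the mutant turned as well. The amplitude difference turned for *dod-3* with limma (0.43) and for *mtl-2* without a filter (0.0043). When each hour or pair was left out, the linear change ran from -0.31 to 0.32 for *sod-3* in wild type, and in the mutant from -0.016 to 0.70 for *mtl-1* and from -0.011 to 0.27 for *mtl-2*. The amplitude difference then ran from -1.12 to 0.40 for *dod-3* and from -0.045 to 0.060 for *mtl-2*. The causes were not tested. The counts behind *mtl-1*, *sod-3* and *dod-3* were few, and the effect of depth on their differences and rhythms was not tested.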
